A study of Mus musculus with 10 samples.

Results

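Antimicrobial and mucosal defence proteins are described here through 10 genes: Slpi, Wfdc2, Ltf, Lyz1, Lyz2, Lcn2, S100a8, S100a9, Reg3g and Pigr. They were chosen by name for their known function, with earlier results of these data known. All 10 were found by symbol among the 24421 genes of the authors' deposited table, and all 10 were tested there. The study measured poly(A)-selected RNA of olfactory epithelium, the sensory lining of the nose, from untreated C57BL/6 mice aged 6 months. It set 4 libraries labelled Apoe3 against 6 labelled Apoe4, the series title naming them as human alleles of the gene for the lipid carrier apolipoprotein E. The labels give neither the sex of the animals nor how the alleles were introduced. The table holds 1 mean, 1 fold change and 1 test per gene over all 10 libraries, so spread is given as model errors and not as values per animal. In bulk tissue, fewer cells of a type and less RNA per cell cannot be told apart.

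The surface of the nose is protected by a fluid that glands and epithelial cells fill with proteins acting directly on microbes. Lysozyme cuts the bacterial cell wall, lactoferrin (Ltf) and lipocalin 2 (Lcn2) withhold iron, calprotectin (the S100a8 and S100a9 dimer) withholds zinc and manganese, and the lectin Reg3g binds and damages Gram-positive bacteria. Slpi and Wfdc2 belong to the whey acidic protein family, and Slpi also inhibits the elastase of neutrophils. Pigr, the polymeric immunoglobulin receptor, carries dimeric IgA through the epithelium into the fluid. Several of these proteins are made by more than one cell type: S100a8 and S100a9 fill the cytosol of neutrophils, Ltf and Lcn2 are stored in neutrophil granules as well as secreted by glands, and Lyz2 is a product of macrophages.

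Slpi (chromosome 2, 164354070 to 164356507, GRCm38, protein coding) was the member called as different between the Apoe4 and Apoe3 libraries. Reg3g (chromosome 6, 78466269 to 78468874, protein coding) was the member with the highest mean. The 250 bases before their start sites are shown for that reason, as RefSeq gives them on GRCm38.p6, 5′ to 3′ on the gene's strand, which is the minus strand for both. Capitals mark a C/EBP match in Slpi, and an NF-kB match followed by a TATA box in Reg3g.
Slpi, chr2:164356508-164356757: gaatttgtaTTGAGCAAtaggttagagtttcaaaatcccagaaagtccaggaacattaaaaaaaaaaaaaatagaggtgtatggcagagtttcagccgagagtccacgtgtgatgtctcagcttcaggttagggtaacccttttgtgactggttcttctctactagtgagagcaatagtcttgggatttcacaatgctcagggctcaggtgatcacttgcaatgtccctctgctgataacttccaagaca
Reg3g, chr6:78468875-78469124: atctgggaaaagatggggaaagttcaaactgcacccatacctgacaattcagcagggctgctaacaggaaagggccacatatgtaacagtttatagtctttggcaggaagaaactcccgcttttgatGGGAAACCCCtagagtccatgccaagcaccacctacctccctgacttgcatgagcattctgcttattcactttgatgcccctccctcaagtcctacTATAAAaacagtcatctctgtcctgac
The motifs searched in such windows were C/EBP (TTGCNNAA), STAT (TTCNNNGAA), AP-1 (TGANTCA) and NF-kB (by its consensus), each on both strands, and the TATA box (TATAAA) on the gene's strand. No match in any window overlapped another motif. A C/EBP match was in the windows of Slpi, Ltf, Lcn2, S100a9 and Lyz1, 5 of 11 windows of the members (Wfdc2 has a pair of start sites 1 base apart), against 9.56% of all 32851 windows. The Slpi match spans bases -241 to -234 from the start site. An NF-kB match was present in the Reg3g window alone (2.13% of all windows), and a TATA box in those of Reg3g and S100a8 (7.59% of all). STAT and AP-1 matches, found in 7.02% and 6.75% of all windows, were in none of the 11. These are matches of letters and not measured binding.

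Reads of the defence genes ranged from among the most numerous in the tissue to few. The authors' deposited table gives each gene a mean normalized count, that is, reads divided by a library's size factor and averaged over all 10 libraries. Reg3g had 10942, the 121st highest mean of all genes, Ltf 8327, Lyz2 4618, Wfdc2 3868 and Pigr 2917 in the authors' deposited table. The other 5 had 391 (S100a9), 264 (Lcn2), 165 (S100a8), 158 (Slpi) and 21.3 (Lyz1) per the authors' deposited table. Since longer transcripts give more reads, levels of different genes were set side by side per kilobase. Per kilobase of the longest annotated transcript, Reg3g stood at 5238, Wfdc2 at 4556, Lyz2 at 3509 and Ltf at 3036 normalized counts. The order of these 4 depends on the transcript taken. Per kilobase of the median transcript the first was Ltf (15449), then Wfdc2 (9017) and Reg3g (7652), the median transcript of Ltf having 539 bases and the longest 2743. Pigr (758 by the longest, 3721 by the median transcript) moved in the same way. The median is over all annotated transcripts of a gene, with no check that each is full-length. Where the short ones are partial, this measure overstates the levels of Ltf and Pigr. S100a9 (754), S100a8 (331), Lcn2 (192), Slpi (180) and Lyz1 (16.8 per kilobase of the longest transcript) held the 6th to 10th places by either length. The table gives no error for a mean, so neighbours in this order were not compared.

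**Figure D1:**
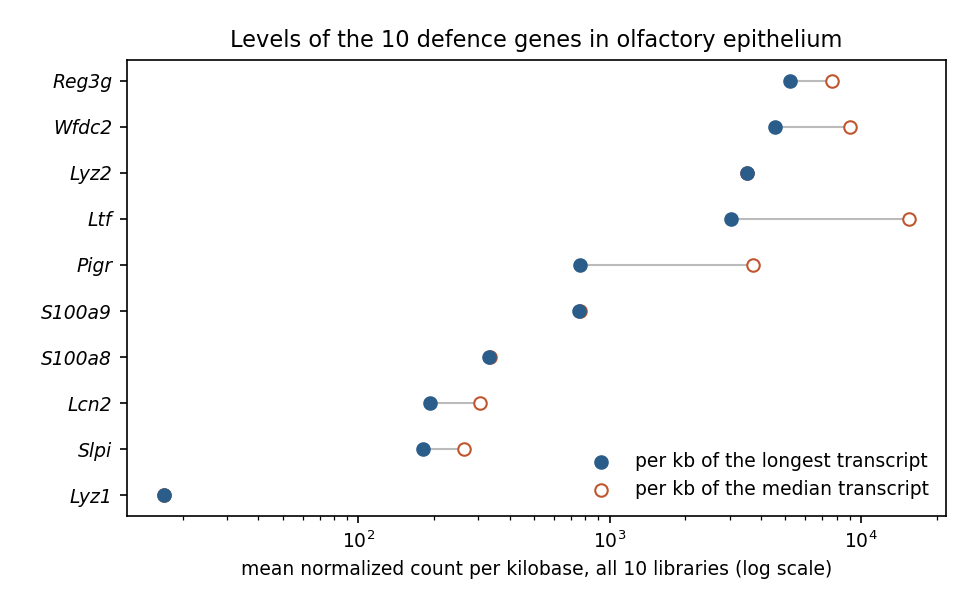
Mean normalized count per kilobase over all 10 libraries (log axis) for the 10 genes, per kilobase of the longest (filled) and of the median (open) annotated transcript. Reg3g at 5238 and Lyz1 at 16.8 are the ends of the filled points, and the open points of Ltf and Pigr lie far to the right of the filled ones.

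Lyz1 and Lyz2 are neighbouring copies on chromosome 10, their starts 10.3 kb apart, yet Lyz2 stood 208.5 times as high as Lyz1 per kilobase, from means of the authors' deposited table. The copies have 447 coding bases each, of which 22 differ. Exon 2, all of it coding (bases 137 to 301 of the coding sequence), shows how closely the genes resemble each other, with the 6 differing bases in capitals (GENCODE vM21, GRCm38, minus strand).
Lyz1, chr10:117291029-117291193: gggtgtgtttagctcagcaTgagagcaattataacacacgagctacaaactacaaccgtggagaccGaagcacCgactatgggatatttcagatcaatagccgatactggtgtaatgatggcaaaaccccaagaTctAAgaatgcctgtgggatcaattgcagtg
Lyz2, chr10:117280641-117280805: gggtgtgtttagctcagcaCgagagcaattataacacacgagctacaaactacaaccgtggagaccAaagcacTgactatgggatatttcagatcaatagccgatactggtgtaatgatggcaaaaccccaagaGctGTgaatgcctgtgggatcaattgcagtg
Of the 1114 windows of 150 bases (the read length of the libraries) in the Lyz1 transcript, 0 are found in that of Lyz2, and the longest identical coding run is 118 bases. A full-length error-free read could therefore be told apart, though how the authors' counting treated reads that match more than 1 place is not given in the sources used here, and the value of Lyz1 is uncertain for that reason. Before the start sites the pair also resemble each other: 8 of the 100 bases upstream differ, and the last 50 are identical.

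In Apoe4 the transcript of the protease inhibitor Slpi was called higher, and it was the 1 member of 10 called. The authors' deposited table gives it a log2 fold of 0.47 (standard error 0.10, adjusted p = 0.00114), a rise of 38.5% on the shrunken scale of the authors' model. The test is the Wald test of DESeq2 with Benjamini-Hochberg adjustment over 16050 genes, and 0.05 is the threshold. Y-linked transcripts such as Eif2s3y (-3.72, adjusted p = 5.3e-282) fell and X-linked Kdm6a rose (0.75, adjusted p = 3.4e-28) per the authors' deposited table. Allele and sex therefore cannot be told apart here, for Slpi or any other gene. Wdfy1, on chromosome 1, was lower too (-2.26, adjusted p = 4.8e-294) per the authors' deposited table. Whether the groups also differ in genetic background was not tested. Over all genes tested, 0.779% passed this threshold and 0.324% passed as higher, to be read beside 1 member of 10, a count that rests on a single gene. The members were chosen with earlier results of these data known, so this count is not independent of them. By p Slpi was the 54th of all genes tested, and among the 52 genes called higher it was the 25th by p and the 14th by fold. At an adjusted p under 0.1 Slpi was still the 1 member called, against 1.06% of all genes. At an unadjusted p under 0.05 Pigr joined Slpi, so that 2 of 10 members passed, against 10.3% of all genes. Of the 10 folds 7 were positive and 3 negative, beside 8197 positive of all 16050 genes tested. Their median was 0.022 on the log2 scale beside 0.0026 for all genes tested. With a trend of the statistic on transcript length removed, all 10 were positive with a median of 0.10, and Slpi was again the 1 member called. The share of positive folds over all genes after this step is not given here. This step lowered the count of positive folds in none of the lists described below, so 10 of 10 is to be read beside a wider shift. Markers of nasal glands went from 16 to 20 positive of 24 tested. Partners and receptors went from 9 to 14 of 19, and macrophage markers from 6 to 10 of 20. The other S100 genes stayed at 4 of 13 and the markers of olfactory epithelium at 8 of 18.

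The deposited folds were pulled towards 0 by a prior, and with it undone the rise of Slpi is larger. The deposited error allows 2 unshrunken readings of every gene, a narrower one with a smaller error and a wider one with a larger error, and the Wald statistic and its p are the same in both. For Slpi the narrower reading is a log2 fold of 0.75 (standard error 0.16), a 1.68-fold rise with a 95% interval from 1.35 to 2.09. The wider reading is 1.27 (standard error 0.28), a 2.41-fold rise with an interval from 1.66 to 3.51. The spread between animals that the model would need is a coefficient of variation of 15.4% in the narrower and 28.4% in the wider reading. Among the 3536 tested genes within 2-fold of its mean, the narrower dispersion of Slpi was at percentile 63.8. No other tested gene that starts within 1000 kb of Slpi was called (0 of 40, beside 0.779% of all genes tested), Wfdc2 among them. RefSeq places 1 gene on the Slpi locus, the microRNA gene Mir7678.

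**Figure D2:**
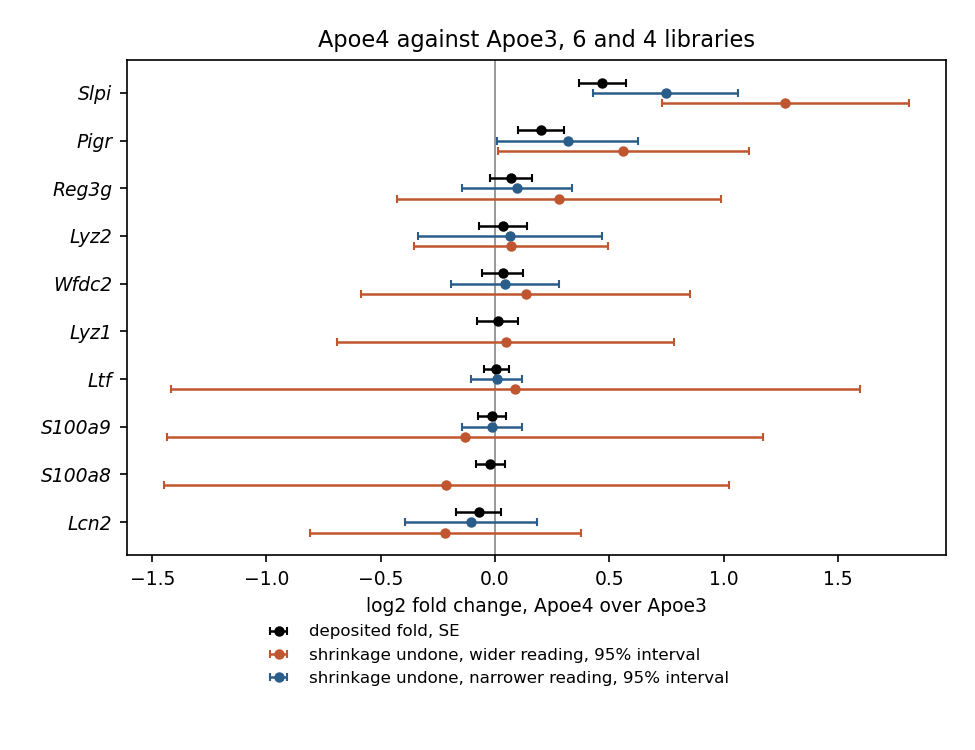
Log2 fold change of each of the 10 genes, Apoe4 (6 libraries) over Apoe3 (4 libraries): the deposited shrunken fold with its standard error (black) and the narrower (blue) and wider (orange) unshrunken readings with 95% intervals. Slpi lies to the right of 0 in all 3, the intervals of S100a8, S100a9 and Ltf reach beyond 1 on either side in the wider reading, and no narrower reading is drawn for S100a8 and Lyz1, where it would be below counting error.

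Wfdc2, the other whey acidic protein (chromosome 2, 164562715 to 164568510, 209 kb from Slpi by their starts), did not pass, with a log2 fold of 0.03 (standard error 0.09, adjusted p = 0.932) per the authors' deposited table. Unshrunken, its ratio of Apoe4 to Apoe3 had a 95% interval from 0.875 to 1.21 in the narrower reading and from 0.666 to 1.81 in the wider one. The narrower interval of Wfdc2 ends below that of Slpi begins, while the wider ones overlap. The difference between the 2 folds was not tested, since their covariance over libraries is not known from these values.

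Pigr (chromosome 1, 130826684 to 130852249) had the next largest log2 fold, 0.20 (standard error 0.10), and missed the threshold (adjusted p = 0.476) per the authors' deposited table. Its unshrunken log2 fold lay between 0.0068 and 0.63 in the narrower and between 0.012 and 1.11 in the wider reading. The J chain gene Jchain, whose product joins the IgA that Pigr carries, was at -0.0016 (adjusted p = 0.998) per the authors' deposited table. The heavy chain genes Igha and Ighm were not analysed here.

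The lysozymes did not pass. Per the authors' deposited table, Lyz2 (chromosome 10, 117277541 to 117282272) had a log2 fold of 0.03 (standard error 0.11, adjusted p = 0.940). Lyz1 (117287795 to 117292868) had one of 0.01 (standard error 0.09, adjusted p = 0.981) per the authors' deposited table. Both readings of Lyz2 nearly coincide, at 0.07 with errors of 0.20 and 0.22, and its ratio of Apoe4 to Apoe3 had an interval from 0.792 to 1.38 in the narrower one. Lyz1, with few reads, had an interval from 0.620 to 1.72.

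The iron-withholding proteins were close to 0 on the deposited scale. The authors' deposited table gives Ltf (chromosome 9, 111019292 to 111042766) a log2 fold of 0.0063 (standard error 0.05, adjusted p = 0.982). Lcn2 (chromosome 2, 32384637 to 32387739) stood at -0.07 (standard error 0.10, adjusted p = 0.855) per the authors' deposited table. For Lcn2 the ratio had an interval from 0.762 to 1.13 in the narrower and from 0.570 to 1.30 in the wider reading. For Ltf the readings differ widely: 0.929 to 1.09 in the narrower, 0.375 to 3.02 in the wider. The same small deposited error of Ltf can therefore stand for a level measured closely or for one that varied widely between animals, and these values do not tell which.

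The calprotectin genes lie 23.6 kb apart on chromosome 3 (S100a8 from 90669071 to 90670034, S100a9 from 90692630 to 90695721). The log2 fold of S100a8 was -0.02 and that of S100a9 -0.01, each with an error of 0.06 (adjusted p = 0.937 and 0.966), per the authors' deposited table. Such small errors look precise, but at a mean of 165 the counting of reads alone gives an unshrunken error of 0.073 for S100a8, more than the 0.070 of its narrower reading. Only the wider reading is possible for S100a8: a log2 fold of -0.21 (standard error 0.63) and a ratio between 0.366 and 2.03. S100a9 in its wider reading had a ratio between 0.370 and 2.25. Its narrower reading would need a coefficient of variation of 5.09% between animals. That dispersion is lower than the narrower one of all but 0.0975% of the 5129 tested genes of similar mean. This percentile follows from the small deposited error, so it cannot tell which reading of S100a9 is true.

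Reg3g, the member with the highest mean, had a log2 fold of 0.07 (standard error 0.09, adjusted p = 0.842) per the authors' deposited table. Its unshrunken ratio lay between 0.904 and 1.26 in the narrower and between 0.742 and 1.98 in the wider reading.

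The spread between animals that the model would need can be stated for each member under the readings allowed. For Lyz1 and S100a8 only the wider reading is, and Lyz1 needs a coefficient of variation of 34.0% in it. With the error of the fold at its ceiling, Lyz2 needs a coefficient of variation of 21.9% in the narrower and 23.3% in the wider reading. Its narrower dispersion was at percentile 99.8 of the narrower dispersions of 1437 tested genes within 2-fold of its mean. Pigr was at percentile 99.4 (16.9% in the narrower and 30.1% in the wider reading), Reg3g at 94.2 (13.2% and 38.8%) and Wfdc2 at 93.3 (12.9% and 39.5%). Lcn2 was at 78.4 (14.5% and 31.9%). S100a8 needs 67.3% and S100a9, in its wider reading, 71.3%. Ltf needs either 6.11%, at percentile 10.7, or 82.5%. These percentiles hold only if the narrower reading is true of the genes compared, which these values do not settle; in the wider reading Lyz2 has the lowest value of the 10 and Ltf the highest. They describe the model's spread within the groups, not a difference between them.

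**Figure D3:**
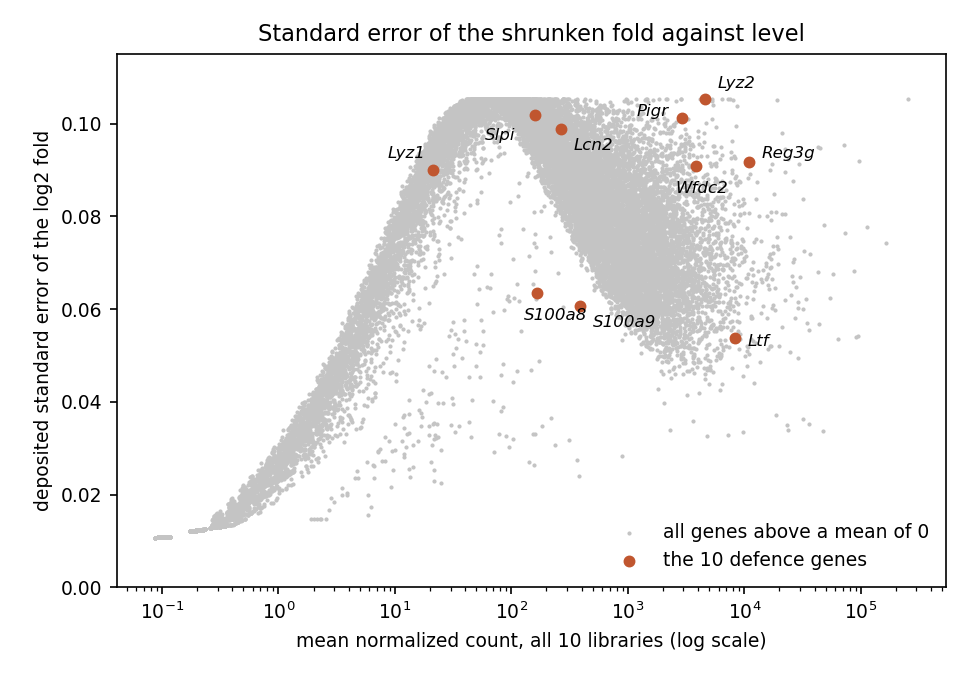
Deposited standard error of the shrunken log2 fold against mean normalized count (log axis) for all genes with a mean above 0 (grey) and the 10 defence genes (orange). The error rises to a ceiling of 0.105 and falls again with the mean; Lyz2 and Pigr lie at the upper edge for their level, S100a8 and S100a9 below the main cloud.

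Some neutrophil markers had errors about as low for their mean as the calprotectin genes, others did not, and some gland markers did too. Ngp and Camp, both made by maturing neutrophils and named here after their values were seen, had means of 148 and 112 and errors of 0.05 each in the authors' deposited table, smaller than in all but 0.261% and 0.290% of tested genes of similar mean. Their narrower readings were below counting error too, and the wider ones need a coefficient of variation of 96.4% for each. The errors of Mmp9 and Cd177 were at percentiles 95.7 and 92.1 among genes of similar mean, those of Csf3r, a growth factor receptor, and Hdc, a histamine-forming enzyme, at 58.9 and 45.7. Mpo, Retnlg, Chil3 and Elane were at 1.24, 1.40, 0.860 and 1.65. The granule proteins Lcn2 and Ltf were at 76.2 and 10.4. Low errors were not particular to neutrophil markers: the gland markers Lcn4, Mup5 and Lcn3 were at 0, 0.0539 and 0.149, while Bpifb1 was at 97.4. Over all genes, 17 of the 12224 tested with a mean of at least 100 had a narrower reading below counting error, S100a8, Ngp and Camp among them. Of 22 neutrophil markers 15 were tested and 0 were called by DESeq2 (0 at an unadjusted p under 0.05), with a median log2 fold of -0.02. Of all genes tested 0.779% were called and 10.3% had an unadjusted p under 0.05. Mpo, the peroxidase of neutrophil granules, was at -0.05 (adjusted p = 0.774), Mmp9, a secreted gelatinase, at -0.18 (adjusted p = 0.518) and Cd177, a neutrophil surface protein, at 0.18 (adjusted p = 0.555) per the authors' deposited table. The summed mean of the listed neutrophil markers was 3041, mostly of Mmp9 and Hdc, and the marker Ly6g was not analysed here. The part of neutrophils in the values of S100a8, S100a9, Ltf and Lcn2 was not tested.

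The other lists of defence genes held no call. Over all genes tested 0.779% were called and 10.3% had an unadjusted p under 0.05, shares to be read beside the counts here. Of 41 other secreted defence genes 24 were tested, 8 were listed at a mean of 0, and none was called; 5 had an unadjusted p under 0.05, 2 higher and 3 lower. Their median log2 fold was 0.026. Cst3, an inhibitor of cysteine proteases, was at -0.26 (adjusted p = 0.174), Chil4, a chitinase-like protein, at 0.13 (adjusted p = 0.355), the gel-forming mucin Muc5b at -0.18 (adjusted p = 0.476) and the chitinase-like Chil1 at 0.20 (adjusted p = 0.479) per the authors' deposited table. Dmbt1, a mucosal scavenger glycoprotein with a mean of 3628, was at 0.02 (adjusted p = 0.869) per the authors' deposited table.

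Relatives of the members by family held no call either, to be read beside the same 0.779% and 10.3% of all genes tested. Among 25 whey acidic protein and lysozyme relatives 6 were tested and 0 called, with 1 at an unadjusted p under 0.05. That gene, Wfdc18, was at 0.15 (adjusted p = 0.411) per the authors' deposited table, and its level of 12740 per kilobase was above that of every member by the longest transcript. Of 15 other genes listed by an S100 symbol 13 were tested and 0 called, 1 at an unadjusted p under 0.05. The list includes S100pbp (0.0025), which encodes a protein that binds an S100 protein and is not of the family. Of the 13 folds 9 were negative, with a median of -0.09 (-0.02 with the length trend removed). S100a16 at -0.20 (adjusted p = 0.395) and S100a1 at -0.15 (adjusted p = 0.567) had the smallest p there in the authors' deposited table. Of 6 other Reg lectins Reg1 alone was tested, and it was not called at 0.29 (adjusted p = 0.157, and 0.0172 with the length trend removed) per the authors' deposited table. Its level was 27.5 per kilobase, beside 5238 for Reg3g, and Reg3b, Reg2 and Reg4 were listed at a mean of 0.

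Partners and inducers also held no call, again beside 0.779% of all genes called and 10.3% at an unadjusted p under 0.05. Of 22 receptors and partners 19 were tested and 0 called, with 1 at an unadjusted p under 0.05: Extl3, a glycosyltransferase described as a receptor of Reg proteins, at 0.13 (adjusted p = 0.438) per the authors' deposited table. The calprotectin receptor Tlr4 was at 0.13 (adjusted p = 0.668) and Elane, the elastase that Slpi inhibits, at -0.02 (adjusted p = 0.929) per the authors' deposited table. Of 38 genes that induce epithelial defence, such as cytokines, their receptors and NF-kB factors, 28 were tested and 0 called, 1 at an unadjusted p under 0.05, with a median of 0.015. Il1r1, the interleukin 1 receptor, was at 0.19 (adjusted p = 0.452), and Nfkbia, the inhibitor of NF-kB, at -0.15 (adjusted p = 0.497) per the authors' deposited table.

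**Figure D4:**
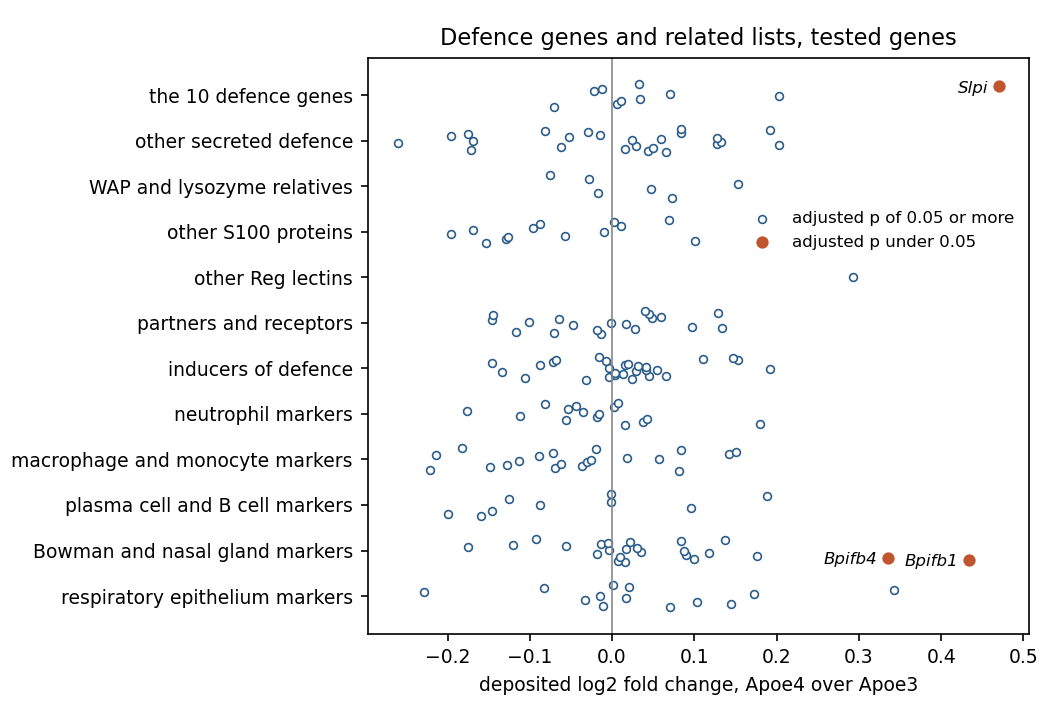
Deposited log2 fold change (Apoe4 over Apoe3) of every tested gene of the defence genes and of 11 related lists; filled points passed an adjusted p of 0.05. Slpi at 0.47, Bpifb1 at 0.43 and Bpifb4 at 0.34 are the filled points, all to the right of 0.

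Among markers of cell types that make these proteins, 2 gland genes of 1 family were called. Allele and sex cannot be told apart for these calls, as for Slpi. The lists were chosen with earlier results of these data known, so their shares of calls may not be independent of those results. Of 26 Bowman and nasal gland markers 24 were tested and 2 rose, beside 0.324% of all genes tested, the genes of the secreted proteins Bpifb4, with a log2 fold of 0.34 (adjusted p = 2.8e-04), and Bpifb1, with 0.43 (adjusted p = 0.0031), per the authors' deposited table. Over all 11 related lists these were the 2 calls of 166 genes tested, and 0.779% of all genes were called. Both genes lie on chromosome 2, as Slpi does: Bpifb4 starts at 153938217 and Bpifb1 at 154190818. Bpifb6, which starts nearby at 153900388, was not called, at 0.18 (adjusted p = 0.490) per the authors' deposited table. Whether these calls and that of Slpi are related was not tested. The gland list's median was 0.019, and Aqp5, the water channel of gland cells, was at 0.02 (adjusted p = 0.958) per the authors' deposited table. Respiratory epithelium markers had 0 calls of 13 tested and 3 with an unadjusted p under 0.05, the smallest p being that of Scgb3a1, an airway secretoglobin, at 0.34 (adjusted p = 0.0979, and 0.00796 with the length trend removed) per the authors' deposited table. Macrophage and monocyte markers had 0 calls of 20 tested, 2 with an unadjusted p under 0.05, and a median of -0.05 with 14 of 20 folds negative, which became 10 of 20 with the length trend removed. Plasma and B cell markers had 0 calls of 9 tested, 2 with an unadjusted p under 0.05, and a median of -0.09. Over all genes tested 10.3% had an unadjusted p under 0.05. The part of these cells in the rise of Slpi was not tested.

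Some values of the whole comparison stand beside those of the defence genes, and for them too allele and sex cannot be told apart. Library sizes, read from genes with a single read, ran from about 14900000 to 20100000 assigned reads. All 18 defining markers of olfactory epithelium were tested, among them Omp of mature neurons, with 1 call, beside 0.779% of all genes tested. The carbonyl reductase gene Cbr2 was lower at -0.26 (adjusted p = 0.0421, and 0.309 with the length trend removed) per the authors' deposited table. Of 7 erythroid markers tested 4 were called lower, beside 73 of all 16050 genes tested. Slc4a1, the anion exchanger of red cells, was among them at -0.27 (adjusted p = 0.0051) per the authors' deposited table. The 4 haemoglobin genes listed were at a mean of 0, and the part of blood in the members' values was not tested.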

How the data were processed

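Poly(A)-selected RNA of 10 olfactory epithelium libraries was sequenced as paired reads of 150 bases, per the labels' protocols. The submitters' processing notes name STAR, featureCounts, DESeq2 and GRCm38; their versions, settings and strandedness are not stated there. A single table was deposited, with 1 row of results for each gene. Its mean column is a signal, read counts divided by size factors and averaged by the authors. The deposited log2 fold changes and errors behave as shrunk by a prior, judged from the values, since the sources used here do not state it. The deposited score is the Wald statistic, and the deposited p-values are its two-sided normal p, adjusted over 16050 genes. The planned count test needs values per library, so every test is the authors', at an adjusted p of 0.05 across all genes.

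Genes with a single read in 1 library took 10 mean levels, 6 with positive and 4 with negative folds, so a positive fold is higher in Apoe4 (6 libraries) than in Apoe3 (4). The labels call the libraries biological replicates.

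A penalised fit gives an error that rises and then falls with the unshrunken error, to a ceiling; the ceiling was 0.105 and the prior SD, which is 2 times the ceiling, 0.211. A single-read gene with a dispersion of 10 should then have an error of 0.0106, and the smallest deposited was 0.0107. Solving for the unshrunken error gives 2 readings, and the negative binomial dispersion that each needs at the gene's mean gives the coefficient of variation. A reading below counting error was dropped. This step was tested on simulated data, in which each reading was the true one for many genes. The dispersions there were drawn and not taken from these data, so the simulation cannot say which reading is likelier here. Means per kilobase used GENCODE vM21 transcripts, positions RefSeq GRCm38.p6. The analysis used Python 3.11.15, pandas 2.3.3, scipy 1.17.1 and statsmodels 0.14.6.

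Members and lists were chosen with earlier results of these data known. Named genes are the members, called genes of each list and up to 4 others with the smallest p. Dmbt1, Jchain, Tlr4, Elane, Ngp, Camp, Csf3r, Retnlg, Chil3, Lcn3, Lcn4, S100pbp, Aqp5, Omp and Wdfy1 were named after their values were seen. Alternatives were no filter on the mean, a minimum mean of 100, removal of a lowess curve (fraction 0.3) on transcript length, leaving out X and Y genes, a threshold of 0.1 and undoing the shrinkage.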

Additional observations from a re-analysis of the deposited data

How the results depend on the processing

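Slpi was called in every alternative run, with adjusted p from 1.8e-05 (length trend removed) to 0.00147 (no filter on the mean), and no other member was called in those that used an adjusted p. Undoing the shrinkage keeps p and a threshold of 0.1 holds every call at 0.05, so neither could drop Slpi. The filters and leaving out X and Y genes change only the adjustment of p. Leaving out those genes does not remove the sex-linked difference between the groups. Filters and leaving out X and Y genes leave a fold as it is, and undoing the shrinkage keeps its sign and its p, so removing the length trend was the 1 alternative that could turn a direction. It turned 3 of 10 members, none of them called: Lcn2 to 0.0060, S100a8 to 0.034 and S100a9 to 0.041 on the log2 scale. Counting members at an unadjusted p under 0.05, chosen after seeing the data, gave 2 in place of 1. Related genes called were 2 of 166 tested and became 4 with the length trend removed, when Reg1 (adjusted p = 0.0172) and Scgb3a1 (adjusted p = 0.00796) were added as higher; the cause was not tested. With the median in place of the longest transcript, the level per kilobase of Ltf was 5.09 times and that of Pigr 4.91 times as high. Whether the shorter annotated transcripts are full-length was not checked. Leaving out replicates and another normalization were not run, as values per library were not used here. No paired analysis was possible because the table holds no columns per library. Depth limits Lyz1 most, and the 2 readings of the error limit Ltf and S100a9.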
